A study of Mus musculus with 4 samples.

Results

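Voltage-gated sodium channels and high-voltage-activated calcium channels, the membrane proteins that carry the action potential and couple it to calcium entry, were followed through the embryonic mouse retina. Their genes were taken by symbol from each deposited table: the sodium channel alpha (Scn1a and its relatives) and beta subunits, and the calcium channel alpha1 subunits a to f and s with the alpha2delta, beta and gamma subunits. Low-voltage-activated T-type alpha1 genes were left out. The rule found 37 genes among 25239 gene IDs, 17 pore-forming and 20 auxiliary. The tissue was dissected retina at E13.5 (days of embryonic development), with 2 libraries labelled control and 2 labelled Isl1cKO, which the series describes as lacking Isl1, a LIM-homeodomain transcription factor. The Cre driver, the Isl1 alleles, the strain, the number of embryos per library and whether the replicates came from separate litters are not given in the sources used here, so tests measure only the spread between these libraries.

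A sodium channel alpha subunit forms the whole pore and voltage sensor, and opens first in an action potential, while the small single-pass beta subunits alter its gating and bind adhesion molecules. A high-voltage-activated calcium channel is built around an alpha1 pore, with a cytoplasmic beta subunit and an extracellular alpha2delta subunit that help it reach the membrane. Most genes named as calcium channel gamma subunits encode partners of AMPA-type glutamate receptors. In the retina at this age the first neurons to leave the cell cycle are retinal ganglion cells, cones, horizontal cells and amacrine cells, and the ganglion cells are the retinal neurons that send an axon to the brain and fire sodium spikes along it.

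Values are TPM, transcripts per 1000000 transcripts of a library, scaled for transcript length so that levels of different genes can be set side by side. Fold changes are differences of log2(TPM + 1), libraries labelled Isl1cKO minus control, with a standard error (SE) from limma. This scale understates the change of genes with low TPM. A gene was called when its Benjamini-Hochberg adjusted p-value from limma was under 0.05 over all 13984 genes with at least 1 TPM in at least 2 libraries.

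Facts of the libraries touch every result below. Isl1 itself measured 242 and 201 TPM in control retina against 321 and 223 TPM under the Isl1cKO label (log2 fold change 0.28, SE 0.21, adjusted p-value 0.683 in limma). It was thus not lower under the label that names its loss. Which part of the gene was deleted is not stated, so TPM of the whole gene does not settle whether the labels hold. All directions below depend on the labels being right. Aligned sequence derived from coverage and FPKM ranged from 12.6 to 14.3 gigabases per library. Isl1cKO replicate 2 stood furthest out on the first principal component, at 30.5 against 7.13 for Isl1cKO replicate 1 and -21.8 and -15.8 for the controls. It also held the lowest value of the 4 libraries in 17 of 26 tested subunits. The same share over all tested genes is not given here, so this count cannot be read as particular to the subunits. The summed TPM of a list of 20 retinal ganglion cell markers was 4299 and 3661 in the controls and 2155 and 1504 in the libraries labelled Isl1cKO. Of its 19 tested markers 18 lay lower without overlap of the groups, 3 of them called. Of all tested genes, 30.0% lay lower without overlap and 0.465% were called lower. The other tested marker of the list had a log2 fold change of 0.02. Pou4f3 was listed at 0 in Isl1cKO replicate 2, as was Thy1, which was at most 0.155 TPM in any library. In a bulk sample, fewer cells of a type and less RNA per cell cannot be told apart. Summed amacrine cell markers were 86.4 and 62.7 TPM, then 60.4 and 45.4 TPM. Summed lens markers went from between 230 and 286 TPM to between 8.53 and 11.0 TPM, with 9 of 12 tested genes called lower. Of the called genes, Cryba1, Cryba2, Cryba4, Cryga, Crygb and Crygc reached 1 TPM, and so were tested, through the controls alone. The same held for Pou4f3 and Shh among the ganglion cell markers. Summed red blood cell markers went from between 2894 and 4147 TPM to between 202 and 1411 TPM. Summed microglia markers went from between 52.3 and 53.2 TPM to between 66.6 and 82.8 TPM. The part of these cell types in the results below was not tested.

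Of the 37 subunits, 26 were tested and 11 were under 1 TPM in every library. Scn9a was the 1 subunit called, as lower, and 0 were called higher; of all tested genes 0.493% were called, 0.465% lower and 0.0286% higher. At an unadjusted p-value under 0.05, 9 of the 26 were lower and 0 higher, against 8.92% and 3.20% of all tested genes. Both libraries labelled Isl1cKO lay below both controls in 17 subunits and above both in 3, against 30.0% and 14.9% of all tested genes. These counts describe subunits that passed a filter on level, and Scn9a and Cacng5 passed it through the controls alone. The median log2 fold change was -0.31 over the 26 tested subunits and -0.05 over all tested genes.

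The subunits that differed most were named by a rule: called, or a log2 fold change of at least 0.5 in size. This gave Scn9a, Scn3b, Scn3a, Cacna1b, Cacng5 and Scn2a, all lower, against 5.59% of tested genes with a log2 fold change of -0.5 or less. No subunit reached 0.5 in the other direction, where 1.25% of tested genes did. Because these subunits lay in the same direction, the 250 bases before the annotated start are shown for the 4 of these 6 genes in the RefSeq promoter table (GRCm38.p6). That table holds 29 of the 37 subunits. Each stretch is written 5′ to 3′ on the gene's strand, and capitals mark TAAT on either strand, the core that homeodomain proteins bind.
Scn9a, chr2:66634963-66635212, minus strand: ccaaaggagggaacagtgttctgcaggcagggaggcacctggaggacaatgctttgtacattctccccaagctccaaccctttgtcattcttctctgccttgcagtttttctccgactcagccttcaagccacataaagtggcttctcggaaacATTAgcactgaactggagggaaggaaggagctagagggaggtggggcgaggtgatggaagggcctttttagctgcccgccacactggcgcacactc
Scn2a, chr2:65620519-65620768, plus strand: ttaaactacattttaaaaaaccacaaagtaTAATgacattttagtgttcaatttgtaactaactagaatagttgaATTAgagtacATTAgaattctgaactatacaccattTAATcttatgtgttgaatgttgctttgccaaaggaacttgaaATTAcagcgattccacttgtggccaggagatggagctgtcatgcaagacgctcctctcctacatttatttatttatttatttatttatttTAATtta
Cacna1b, chr2:24763153-24763402, minus strand: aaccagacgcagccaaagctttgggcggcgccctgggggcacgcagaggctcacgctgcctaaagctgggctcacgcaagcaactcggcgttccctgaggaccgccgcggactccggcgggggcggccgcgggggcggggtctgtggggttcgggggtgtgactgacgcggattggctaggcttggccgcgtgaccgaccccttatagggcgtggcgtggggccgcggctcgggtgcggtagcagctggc
Cacng5, chr11:107915056-107915305, minus strand: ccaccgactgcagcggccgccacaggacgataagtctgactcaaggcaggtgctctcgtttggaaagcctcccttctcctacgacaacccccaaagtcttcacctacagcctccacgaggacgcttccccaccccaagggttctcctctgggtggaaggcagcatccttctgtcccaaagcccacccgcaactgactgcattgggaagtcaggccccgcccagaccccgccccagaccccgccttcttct

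None of these stretches overlaps an annotated exon. TAAT occurred 1 time before Scn9a, with its outer base 96 bases before the start, and 6 times before Scn2a. It occurred 0 times before Cacna1b and Cacng5, and 54.9% of all 32851 windows of this length held it. TAATTA, the palindrome that contains it on both strands, occurred 0 times in the 4 stretches and in 4.84% of all windows. TTCAGCACC, the left part of the RE1 element bound by the neuronal gene repressor REST, occurred 0 times and in 0.301% of all windows. CCAAT, searched on both strands, occurred 1 time before Cacna1b and 1 time before Cacng5, and in 33.8% of all windows. G and C made up 29.6% of the Scn2a stretch, 54.4% of that of Scn9a, 62.0% of that of Cacng5 and 72.0% of that of Cacna1b, with a median of 52.4% over all windows. Each searched pattern was thus missing from at least 2 of the 4 stretches. Scn3a and Scn3b are not covered, and whether any of these patterns acts on the subunit genes was not tested.

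The sodium channel pores held the 1 called subunit, Scn9a. Summed over the 10 alpha subunits, TPM was 40.5 and 35.3 in the controls and 26.1 and 16.1 in the libraries labelled Isl1cKO, 1.80-fold lower by the means. All 6 tested alpha subunits had a negative log2 fold change, and 5 of them had groups that did not overlap. Of all 13984 tested genes, 8916 had a negative log2 fold change, and 30.0% lay lower without overlap. Scn9a (chromosome 2, 66480081 to 66634962, minus strand), the pore best known from pain-sensing and sympathetic neurons, measured 6.40 and 4.99 TPM in control retina against 0.527 and 0.293 TPM under the Isl1cKO label. Both of the latter lay far below either control. The means were 5.69 ± 1.0 and 0.410 ± 0.165 TPM (SD, n = 2 each), 13.9-fold lower. limma gave a log2 fold change of -2.24 (SE 0.15, adjusted p-value 0.0216). Scn9a kept this direction without each library, from -2.09 to -2.40, but its call did not hold without any 1 of the 4 libraries (adjusted p-values in limma from 0.0576 to 0.121). The call was also lost at a pseudocount of 0.1 (log2 fold change -3.53, adjusted p-value 0.0649) and when all genes above 0 were tested (0.0910), and held with FPKM at a log2 fold change of -1.42.

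Scn3a (chromosome 2, 65457118 to 65567492, minus strand), the alpha subunit prominent in the embryonic nervous system, measured 16.933 and 13.501 TPM in control retina against 9.756 and 4.255 TPM under the Isl1cKO label. It was the most abundant sodium channel pore in the controls, and the groups did not overlap. limma gave a log2 fold change of -1.10 (SE 0.37, adjusted p-value 0.368). Dropping Isl1cKO replicate 2 left -0.58, and dropping Isl1cKO replicate 1 left -1.62. Scn2a (chromosome 2, 65620769 to 65767447, plus strand), a pore of young and unmyelinated axons, measured 2.78 and 2.82 TPM in control retina against 1.86 and 0.685 TPM under the Isl1cKO label. Its 2 controls were nearly equal, while the libraries labelled Isl1cKO differed widely from each other. The log2 fold change was -0.79 (SE 0.27, adjusted p-value 0.368 in limma), -0.41 without Isl1cKO replicate 2 and -0.47 with FPKM.

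Scn8a, the main pore of mature axon initial segments and nodes, did not have separate groups. Both controls held 10.2 TPM, while replicate 1 labelled Isl1cKO held 11.2 TPM and replicate 2 held 7.75 TPM. The libraries labelled Isl1cKO lay on both sides of the controls, with a log2 fold change of -0.12, a 95% interval from -0.59 to 0.35 and an adjusted p-value of 0.827 in limma. Scn1a, a pore of inhibitory neurons in the mature brain, measured 1.49 and 1.38 TPM in control retina against 1.16 and 0.992 TPM under the Isl1cKO label. Its groups did not overlap, and it was not called (log2 fold change -0.23, adjusted p-value 0.421 in limma).

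The make-up of the sodium pore family was read as shares of its TPM. Scn8a made up 25.3% and 29.0% of the summed alpha subunit TPM in the controls and 42.7% and 48.2% in the libraries labelled Isl1cKO. Scn9a made up 15.8% and 14.1%, then 2.02% and 1.82%. Scn3a made up 41.8% and 38.2%, then 37.3% and 26.4%. Scn8a was thus the most abundant alpha subunit in both libraries labelled Isl1cKO, and Scn3a in both controls. The Scn3a share differed by -8.13 percentage points between the group means, by -13.6 without Isl1cKO replicate 1 and by -2.69 without Isl1cKO replicate 2. These shares were not tested.

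**Figure D1:**
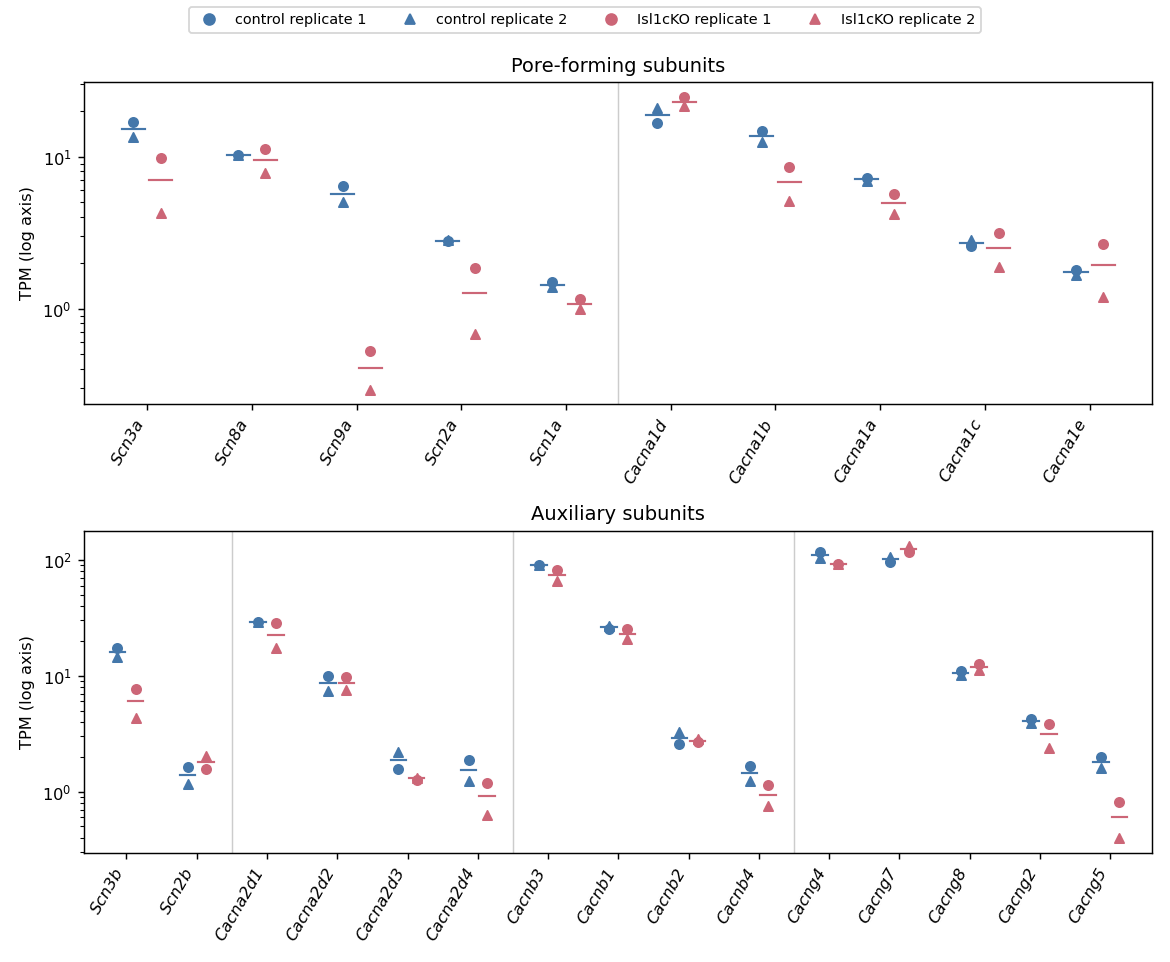
TPM of tested subunits on a log axis, pore-forming above and auxiliary below, ordered by family (grey lines) and by control mean. Points are libraries (circles replicate 1, triangles replicate 2, blue control, red Isl1cKO) and bars are group means; Scn9a shows the widest gap, from a mean of 5.69 to 0.410 TPM, while Scn8a and Cacna2d2 overlap.

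Scn9a, Scn3a, Scn2a, Scn1a and Scn7a lie within 1.33 megabases of chromosome 2, a cluster that arose by gene duplication and that also holds genes unrelated to channels. The neighbours were read to see whether the whole stretch was lower. Csrnp3, between Scn2a and Scn1a, measured 17.6 and 16.8 TPM in control retina against 20.3 and 13.9 TPM under the Isl1cKO label. Ttc21b, which encodes a protein of intraflagellar transport and lies next to Scn1a, held 23.9 and 24.3 TPM, then 23.4 and 22.1 TPM. Their log2 fold changes were -0.03 (95% interval -0.54 to 0.47) and -0.08 (-0.30 to 0.13), against -2.24 (-2.65 to -1.84) for Scn9a. Beyond the cluster, Cobll1 had a log2 fold change of -0.02. Grb14, an adaptor of insulin receptor signalling and the tested gene furthest from Scn9a, was called lower, from 5.71 and 4.89 TPM to 1.58 and 1.87 TPM (log2 fold change -1.21, adjusted p-value 0.0471 in limma). These 4 neighbours are all of the tested genes other than subunits in the cluster and within 500 kilobases of it. Within the cluster itself Scn9a was the 1 gene called, and Grb14 lies outside it. Gm13629, which overlaps Scn9a on the opposite strand, was listed at 0 in all 4 libraries.

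**Figure D2:**
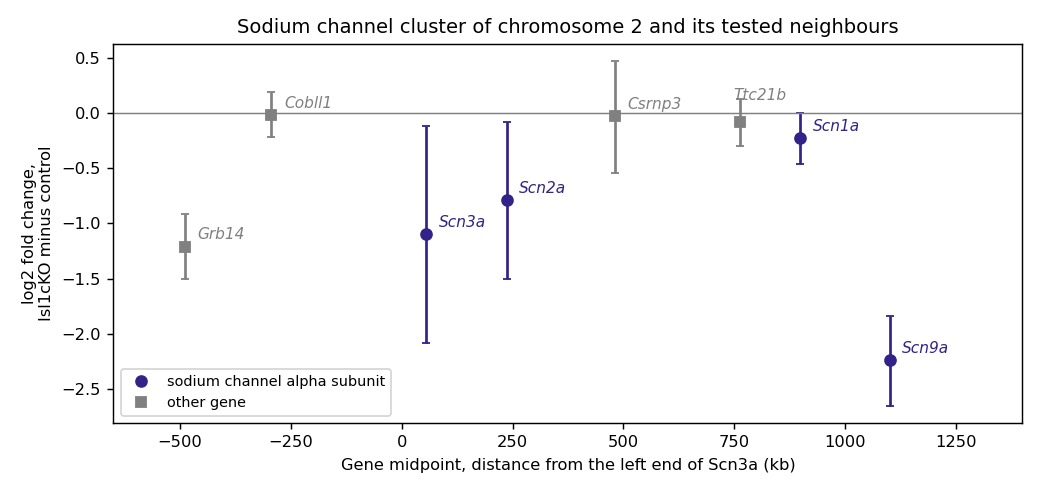
log2 fold change (Isl1cKO minus control, bars 95% intervals from limma) of tested genes against the distance of the gene's midpoint from the left end of Scn3a, in kilobases. Circles are sodium channel alpha subunits and squares other genes; Scn9a lies at -2.24 while Csrnp3, Ttc21b and Cobll1 lie between -0.08 and -0.02 and Grb14 at -1.21.

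The sodium channel beta subunits are accessory proteins with an immunoglobulin-like domain. Scn3b (chromosome 9, 40269216 to 40291618, plus strand), the beta subunit of embryonic neurons, made up 90.8% and 91.7% of beta subunit TPM in the controls. It measured 17.4 and 14.5 TPM in control retina against 7.72 and 4.35 TPM under the Isl1cKO label. The groups were apart by more than the spread within either, with means of 15.9 ± 2.10 and 6.04 ± 2.38 TPM (SD, n = 2 each), 2.64-fold lower. limma gave a log2 fold change of -1.30 (SE 0.26, adjusted p-value 0.203), which was not called. Scn2b, a beta subunit that joins mature axonal channels by a disulphide bond, measured 1.63 and 1.17 TPM in control retina against 1.56 and 2.05 TPM under the Isl1cKO label, and its groups overlapped. Scn4b was at most 0.0185 TPM in any library.

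Calcium channel pores are grouped by the type of current they carry. Cacna1b (chromosome 2, 24603889 to 24763152, minus strand), the N-type pore of presynaptic terminals and growing axons, measured 14.8 and 12.5 TPM in control retina against 8.52 and 5.07 TPM under the Isl1cKO label. The groups did not overlap, and the means of 13.6 ± 1.61 and 6.80 ± 2.44 TPM (SD, n = 2 each) were 2.01-fold apart. Its log2 fold change was -0.94 (SE 0.24, adjusted p-value 0.285 in limma), and -0.62 without Isl1cKO replicate 2. Cacna1a, the P/Q-type pore of mature synapses, measured 7.19 and 6.95 TPM in control retina against 5.69 and 4.21 TPM under the Isl1cKO label, a log2 fold change of -0.45 (SE 0.14, adjusted p-value 0.352 in limma) that was -0.27 without Isl1cKO replicate 2. Cacna1e, the R-type pore, measured 1.80 and 1.66 TPM, then 2.68 and 1.19 TPM, which lie on both sides of the controls.

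Among L-type pores, Cacna1d was the most abundant. Cacna1d (chromosome 14, 30039941 to 30491156, minus strand), an L-type pore that opens at comparatively negative voltages and serves pacemaking and hair cell synapses, stood at 16.7 and 20.9 TPM in the controls. Under the Isl1cKO label it measured 24.6 and 21.5 TPM, just above the higher control. Its log2 fold change was 0.29 (95% interval -0.10 to 0.67, adjusted p-value 0.528 in limma), and it ranged from 0.13 without control replicate 1 to 0.44 without control replicate 2. Dcp1a on the opposite strand overlaps its first part and stood at 24.9, 24.7, 24.5 and 23.1 TPM, and whether strand was used in the quantification is not stated. Cacna1c, the L-type pore of heart and of neuronal cell bodies, measured 2.57 and 2.82 TPM, then 3.15 and 1.87 TPM, with overlapping groups. Dcp1b overlaps Cacna1c in the same way. Of the calcium pore TPM, Cacna1d made up 38.5% and 46.4% in the controls and 54.8% and 63.3% in the libraries labelled Isl1cKO. Cacna1b made up 34.2% and 27.7%, then 19.0% and 15.0%. The 4 L-type genes together made up 45.0% and 53.2%, then 62.4% and 69.1%. Summed calcium pore TPM itself was 43.3 and 45.1 in the controls and 44.9 and 33.9 in the libraries labelled Isl1cKO, which overlap in range.

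**Figure D3:**
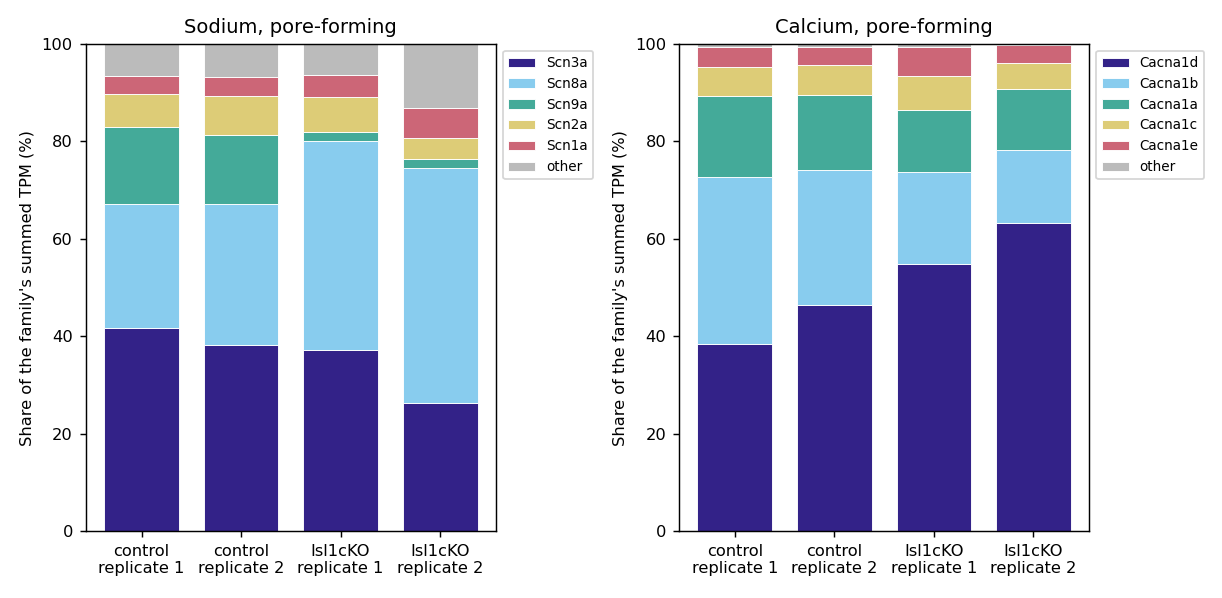
Share of each family's summed TPM (percent, 0 to 100) held by its leading genes and by the others together, 1 bar per library, sodium alpha on the left and calcium alpha1 on the right. The Scn9a band narrows from 15.8% and 14.1% to 2.02% and 1.82%, and the Cacna1d band widens from 38.5% and 46.4% to 54.8% and 63.3%.

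Auxiliary calcium channel subunits had higher summed TPM than the pores. Beta subunits summed to 120 and 122 TPM in the controls and to 111 and 90.2 TPM in the libraries labelled Isl1cKO. Cacnb3, the beta subunit best known from N-type channels, measured 89.7 and 90.5 TPM in control retina against 82.0 and 66.1 TPM under the Isl1cKO label. It held between 73.2% and 75.1% of beta subunit TPM in every library, so it was the leading beta subunit throughout. Cacnb1, the beta subunit also used in skeletal muscle, measured 25.5 and 27.0 TPM, then 25.1 and 20.6 TPM. Cacnb2, used in heart and at photoreceptor synapses, measured 2.60 and 3.26 TPM, then 2.66 and 2.82 TPM. Cacnb4, a beta subunit of the mature brain, measured 1.65 and 1.24 TPM, then 1.13 and 0.756 TPM. The log2 fold changes of the 4 ranged from -0.33 to -0.07 and none was called, with adjusted p-values from 0.472 to 0.852 in limma and 0 at an unadjusted p-value under 0.05. The log2 fold change of Cacnb3 was -0.29 from all libraries and -0.13 without Isl1cKO replicate 2.

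Alpha2delta subunits are anchored on the outer face of the membrane and raise the number of channels there. Cacna2d1, the main target of gabapentin, measured 28.9 and 29.2 TPM in control retina against 28.3 and 17.2 TPM under the Isl1cKO label. Its difference rests on Isl1cKO replicate 2, with a log2 fold change of -0.38 from all libraries and -0.04 without that library. Cacna2d2 measured 10.0 and 7.43 TPM, then 9.83 and 7.54 TPM, with a log2 fold change of 0.00 in size and a 95% interval from -0.50 to 0.50. Cacna2d3 measured 1.58 and 2.20 TPM, then 1.27 and 1.32 TPM. Cacna2d4, the alpha2delta subunit of photoreceptor terminals, measured 1.86 and 1.24 TPM, then 1.19 and 0.631 TPM, and Lrtm2 overlaps it on the other strand. Neither of these was called, with log2 fold changes of -0.32 and -0.42 and adjusted p-values of 0.435 and 0.498 in limma. Cacna2d3 was at -0.17 without control replicate 2, and Cacna2d4 at -0.21 without Isl1cKO replicate 2.

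Gamma subunits were dominated by Cacng4 and Cacng7, both partners of AMPA receptors, and they lay in opposite directions. Cacng4 measured 117 and 104 TPM in control retina against 91.6 and 93.1 TPM under the Isl1cKO label. Cacng7 measured 96.6 and 106 TPM in control retina against 116 and 133 TPM under the Isl1cKO label. Neither pair of groups overlapped, so Cacng4 was the more abundant in control replicate 1 and Cacng7 in both libraries labelled Isl1cKO, while control replicate 2 held both at a like level. Neither gene was called, with log2 fold changes of -0.26 (SE 0.09) and 0.29 (SE 0.11) and adjusted p-values of 0.397 and 0.420 in limma. Cacng7 was at 0.19 without Isl1cKO replicate 2. Cacng8, whose gene adjoins Cacng7 on chromosome 7, measured 11.0 and 10.1 TPM in control retina against 12.6 and 11.3 TPM under the Isl1cKO label, a log2 fold change of 0.16.

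Cacng5 (chromosome 11, 107874605 to 107915055, minus strand), a neighbour of Cacng4, measured 1.99 and 1.60 TPM in control retina against 0.815 and 0.396 TPM under the Isl1cKO label. The means were 2.96-fold apart, with a log2 fold change of -0.81 (SE 0.16, adjusted p-value 0.203 in limma). Cacng2, the stargazin gene, measured 4.27 and 3.90 TPM, then 3.85 and 2.40 TPM, a log2 fold change of -0.32 that was -0.07 without Isl1cKO replicate 2. Cacng3 was under the filter, with 0.755 and 0.436 TPM in control retina against 0.163 and 0.106 TPM under the Isl1cKO label.

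Subunits best known from other excitable tissues were under 1 TPM in every library. Scn4a and Cacna1s, the sodium and calcium channel pores of skeletal muscle, were at most 0.298 and 0.0591 TPM in any library. Cacng1, the muscle gamma partner of Cacna1s, was at most 0.204 TPM. Of 16 skeletal muscle markers, 14 were under 1 TPM in every library, and their sum ranged from 5.06 to 9.36 TPM. Scn10a, a pore of pain-sensing neurons, was listed at 0 in both libraries labelled Isl1cKO and at 0.0262 and 0.0362 TPM in the controls. Scn11a, of the same neurons, was at most 0.341 TPM, and Scn7a, an atypical sodium-sensing relative, at most 0.165 TPM. Of 9 markers of sensory ganglia and Schwann cells found in the tables, 5 were under 1 TPM in every library, among them Sox10, which was listed at 0 in control replicate 1. The list summed to 15.6 and 19.3 TPM in the controls and 11.8 and 11.1 TPM in the libraries labelled Isl1cKO, and its part in the Scn9a difference was not tested. Cacna1f, the L-type pore of photoreceptor terminals, was at most 0.223 TPM, and Cacng6 at most 0.541 TPM.

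Pore-forming and auxiliary subunits were set against each other. The 17 pore-forming genes summed to 83.8 and 80.5 TPM in the controls and to 71.0 and 50.0 TPM in the libraries labelled Isl1cKO, 1.36-fold lower by the means. The 20 auxiliary genes summed to 413 and 405 TPM and then to 386 and 364 TPM, 1.09-fold lower. Pores thus made up 16.9% and 16.6% of all subunit TPM in the controls and 15.5% and 12.1% in the libraries labelled Isl1cKO. Gamma subunits supplied 232 and 227 TPM of the auxiliary sum in the controls and 225 and 240 TPM in the libraries labelled Isl1cKO. Most gamma genes encode AMPA receptor partners. The sum of each other auxiliary family was lower by the means. The auxiliary sum, the pore share and the calcium channel sum below therefore depend on counting the gamma genes as channel subunits. Among tested genes, 6 of 11 pore-forming and 3 of 15 auxiliary subunits were lower at an unadjusted p-value under 0.05, against 8.92% of all tested genes. The median log2 fold change was -0.38 over the 11 and -0.29 over the 15, but -0.12 over all 17 pore-forming and -0.23 over all 20 auxiliary genes. The order of the medians therefore turned with the genes near 0, and no difference between the classes can be read from them. By ion, the median was -0.59 over the 8 tested sodium channel genes and -0.27 over the 18 tested calcium channel genes, and the summed TPM was 1.90-fold and 1.07-fold lower. Over all 14 sodium and all 23 calcium channel genes the medians were -0.14 and -0.20, so their order turned as well, and the calcium median over tested genes was -0.08 without Isl1cKO replicate 2. The sodium sums and the ganglion cell marker sum, 2.18-fold lower, both lay below the controls in both libraries labelled Isl1cKO, and their relation was not tested.

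**Figure D4:**
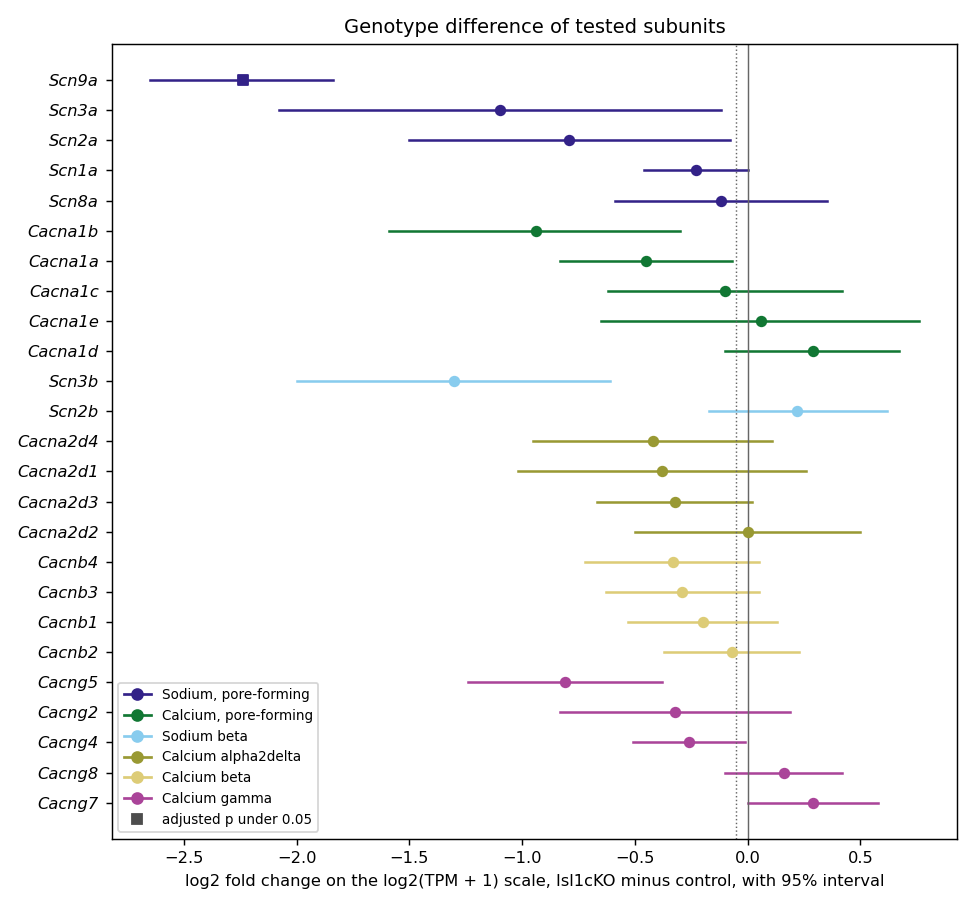
log2 fold change on the log2(TPM + 1) scale, Isl1cKO minus control, with 95% intervals from limma, for tested subunits, coloured by family. The square marks Scn9a, the 1 called subunit at -2.24, and the dotted line marks the median of all tested genes at -0.05.

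Genes that work with these channels were read from lists drawn up by function. Of 12 sodium channel partners (ankyrins, a spectrin, the intracellular fibroblast growth factor homologues, cell adhesion partners and others), 11 were tested and 0 were called in limma. At an unadjusted p-value under 0.05 in limma, 4 were lower and 0 higher, against 8.92% and 3.20% of all tested genes. The log2 fold changes of these partners ranged from -0.74 for Nrcam, an adhesion protein of the axon initial segment, to 0.09, with a median of -0.18. Ank3, the ankyrin that anchors sodium channels at the initial segment, measured 76.5 and 70.8 TPM in control retina against 77.0 and 76.4 TPM under the Isl1cKO label. Its values overlapped, as did those of the pore Scn8a, while those of the pores Scn9a, Scn3a and Scn2a did not. Of the 11 tested partners, 5 lay lower without overlap and 0 higher, against 30.0% and 14.9% of all tested genes.

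Of 19 calcium channel partners found in the tables, 15 were tested and 0 were called in limma. At an unadjusted p-value under 0.05 in limma, 5 were lower and 1 higher, against 8.92% and 3.20% of all tested genes. Gem, among the lower, reached 1 TPM in the controls alone. The median log2 fold change of these partners was 0.06. The lowest, at -0.70, was Rims1, which tethers presynaptic calcium channels to the release site, at 3.43 and 3.24 TPM in the controls and 1.91 and 1.43 TPM in the libraries labelled Isl1cKO. Rem2, a small GTPase that inhibits high-voltage-activated channels, measured 25.4 and 25.0 TPM, then 29.3 and 26.7 TPM. Among related channels outside the rule, the T-type pore Cacna1i was the only gene called, with 2.15 and 2.34 TPM in control retina against 68.0 and 61.5 TPM under the Isl1cKO label (log2 fold change 4.34, adjusted p-value 0.00280 in limma). In both libraries labelled Isl1cKO its level thus exceeded that of every high-voltage-activated pore. The sodium leak pore Nalcn measured 5.01 and 4.86 TPM, then 5.08 and 4.58 TPM, with overlapping groups.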

How the data were processed

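RNA sequencing of dissected retina gave 1 deposited table for each of 4 libraries, 2 a group. Per the labels' protocols, a kit that keeps strand was used after poly(A) selection. The submitters' processing notes name Trimmomatic, FastQC, HISAT2, SAMtools, StringTie and DESeq2 and the build mm10, with no versions or order, and the annotation and the use of strand are not given in the sources used here. Per the file headers, the authors deposited TPM, FPKM and mean coverage per base for each gene. TPM, which summed to 1000000 per library, was used. The deposited FPKM entered an alternative, and the deposited coverage signal served only to derive aligned sequence, since depth in reads is unknown and no counting interval was computed. Reads shared by related channel genes may have been divided in ways the tables do not record.

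No subunit stood on more than 1 row; other repeated gene IDs were summed. A linear model of log2(TPM + 1) on genotype alone was run in limma 3.58.1 (R 4.3.3; lmFit, then eBayes with a constant variance prior), with Benjamini-Hochberg adjustment over all tested genes. The model was tested on simulated data. Members, gene lists and tests were chosen with earlier results of these data known. A few genes are not reported by name here, though sums and counts include them. The subunits named first were called or had a log2 fold change of at least 0.5 in size. Of the partner lists, called genes were named by rule, and Nrcam, Ank3, Rims1, Rem2, Nalcn and the chromosome 2 neighbours were chosen after their values were seen. Positions are those of the tables. Promoter sequences are from RefSeq, and exons from GENCODE M21.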

Additional observations from a re-analysis of the deposited data

How the results depend on the processing

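The count of 69 called genes was 44 at a pseudocount of 0.1, 15 with no filter beyond a value above 0, 127 with FPKM and 110 with a mean-variance trend. The count of 1 called subunit was 0 at a pseudocount of 0.1, 0 with no filter and 0 at a filter of 5 TPM, where Scn9a was not tested. Median-ratio and upper-quartile scaling, FPKM, the trend and the largest row kept Scn9a as the called subunit. With no filter the median of pore-forming subunits, -0.38, was -0.12.

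Leaving out each library was planned for values only. Its test with limma, added after the data had been seen, assumes that the lone library varies like the other group, and gave 10 to 37 called genes and 0 called subunits. The planned medians ranged from -0.47 to -0.26 for pore-forming and from -0.34 to -0.10 for auxiliary subunits, the latter highest without Isl1cKO replicate 2. Signs changed for genes near 0: over the libraries left out, Cacna1c ranged from -0.37 to 0.17, Scn8a from -0.36 to 0.11, Cacna1e from -0.32 to 0.43, Cacnb2 from -0.19 to 0.05 and Cacna2d2 from -0.19 to 0.19. Cacna2d2 was 0.04 under median-ratio scaling, upper-quartile scaling and FPKM. The causes were not tested.

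The replicate numbers carry no label of a shared litter, and the deviations of the replicate 1 libraries correlated at 0.126 across genes. With 2 pairs this does not settle whether the numbers pair the samples, and they were not treated as pairs. Under the replicate block, 265 genes and 3 subunits were called, Scn9a, Scn3b (adjusted p-value 0.0263) and Cacng5 (0.0433), all lower. The 4 shares recomputed could not change with FPKM, which is proportional to TPM within a library. Nor could they change with the largest row, since the gene ID of no subunit was repeated. The tables hold no read numbers, and genes listed at 0 carry no upper limit here.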
